A study of Homo sapiens with 4 samples.

Results

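The 9 genes described here encode cell adhesion molecules of the immunoglobulin superfamily: NCAM1, NCAM2, L1CAM, CHL1, NRCAM, NFASC, MCAM, ALCAM and CNTN1. Their members in the data are the regions of open chromatin that overlap the RefSeq GRCh38 span of 1 of these genes extended by 10 kb on both sides. There were 124 such regions among the 125986 that the authors listed. They were measured by ATAC-seq, a method that inserts sequencing adapters into accessible DNA by means of a transposase, in the established human melanoma line A375. Both groups grew in DMEM with fetal bovine serum and were harvested after 48 h with either octanoate, a fatty acid of medium chain length, at 1 mM (2 libraries) or isopropanol, its vehicle (2 libraries). The labels do not say whether these came from separate cultures, so the p-values may measure technical spread only. The data used here are 1 table that the authors deposited, of octanoate against vehicle, and it has no column for a single library, so levels are means over the 4 libraries and each difference is the authors' own.

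Immunoglobulin cell adhesion molecules carry immunoglobulin domains outside the cell and bind the same or a related molecule on a neighbouring cell. They guide the growth and bundling of nerve fibres, and several are found on cells of the neural crest, the embryonic tissue from which melanocytes derive. MCAM was first described on melanoma cells, and ALCAM and L1CAM are also known from melanoma. An open region at a gene start is usual for genes in use, but openness alone is no measure of expression.

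The starts of the genes were examined first, because their CpG counts differed between those covered by a region and the others. The RefSeq start windows (GRCh38.p14) gave 15 starts for 8 of the genes, here called RefSeq starts, and NCAM1 had no entry. The windows left out the outer ends of the RefSeq spans of NCAM2, L1CAM, CNTN1 and NRCAM. Those ends lay in listed regions, but the CpG before them was not counted, so the 15 are an incomplete set of starts. In 8 of the 15 (53.3%), a listed region covered part of the 250 bases before the start, against 53.7% of all RefSeq start windows. The number of CpG dinucleotides in these 250 bases was 9 to 29 (median 19) in the 8 covered windows and 1 to 8 (median 2) in the 7 others, so the groups did not overlap. Over all 35116 RefSeq start windows, a listed region covered 83.3% of those with at least 9 CpG and 18.8% of those with fewer. The limit of 9 was set by the members themselves and was chosen after the values were seen. Windows of a gene can overlap, as those of L1CAM do, and 1 region covered both CHL1 windows, so the 15 are not independent.

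The 5 windows below show this contrast, each read 5′ to 3′ on the gene's strand with every CpG in capitals. The first 3 are examples of covered windows at the outermost start of a gene, and the other two are the uncovered windows that lay closest to regions with an unadjusted p under 0.05.
ALCAM, chr3:105366659-105366908, plus strand: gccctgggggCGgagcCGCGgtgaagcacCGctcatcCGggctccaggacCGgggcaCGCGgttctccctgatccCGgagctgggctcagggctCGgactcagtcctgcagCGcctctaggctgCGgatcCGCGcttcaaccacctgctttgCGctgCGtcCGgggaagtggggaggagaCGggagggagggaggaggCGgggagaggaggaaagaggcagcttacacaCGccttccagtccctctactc
MCAM, chr11:119317131-119317380, minus strand: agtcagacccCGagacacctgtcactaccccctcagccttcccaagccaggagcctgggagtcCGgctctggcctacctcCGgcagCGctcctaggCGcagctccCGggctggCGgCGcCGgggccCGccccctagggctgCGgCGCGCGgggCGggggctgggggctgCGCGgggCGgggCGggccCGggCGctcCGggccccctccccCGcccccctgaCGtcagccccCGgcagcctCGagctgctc
NFASC, chr1:204828402-204828651, plus strand: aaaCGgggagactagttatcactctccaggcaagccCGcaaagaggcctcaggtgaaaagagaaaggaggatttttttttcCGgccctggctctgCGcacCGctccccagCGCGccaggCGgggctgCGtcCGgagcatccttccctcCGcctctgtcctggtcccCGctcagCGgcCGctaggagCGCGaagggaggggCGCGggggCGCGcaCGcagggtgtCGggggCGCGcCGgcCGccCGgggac
CNTN1, chr12:40908107-40908356, plus strand: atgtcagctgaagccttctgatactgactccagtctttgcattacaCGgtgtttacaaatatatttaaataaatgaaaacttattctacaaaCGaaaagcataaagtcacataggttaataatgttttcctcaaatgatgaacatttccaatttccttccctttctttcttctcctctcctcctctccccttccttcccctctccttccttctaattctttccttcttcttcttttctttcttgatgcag
NRCAM, chr7:108243386-108243635, minus strand: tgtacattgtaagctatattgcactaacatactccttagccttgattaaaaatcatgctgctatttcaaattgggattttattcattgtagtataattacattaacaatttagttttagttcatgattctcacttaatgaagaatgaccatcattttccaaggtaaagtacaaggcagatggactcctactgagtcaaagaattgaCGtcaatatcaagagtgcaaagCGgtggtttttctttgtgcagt
The ALCAM, MCAM and NFASC windows hold 20, 26 and 27 CpG, and the CNTN1 and NRCAM windows hold 2 each. G and C made up 68.8%, 79.6% and 69.6% of the first 3 and 36.4% and 33.2% of the other two. Over all 15 windows this share overlapped between the groups, from 53.6% to 79.6% in the 8 covered and from 29.2% to 62.8% in the 7 others. The GC box GGGCGG, searched on both strands, occurred in 4 of the 8 covered and 2 of the 7 uncovered windows, and in 42.6% of all RefSeq windows. The CCAAT box (CCAAT), searched in the same way, occurred in 0 of the 8 covered and 3 of the 7 uncovered windows, and in 32% of all windows. The palindromic motif TGANTCA, known from AP-1 sites, occurred in 1 window, the NRCAM window printed here, and in 6.57% of all windows.

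**Figure D1:**
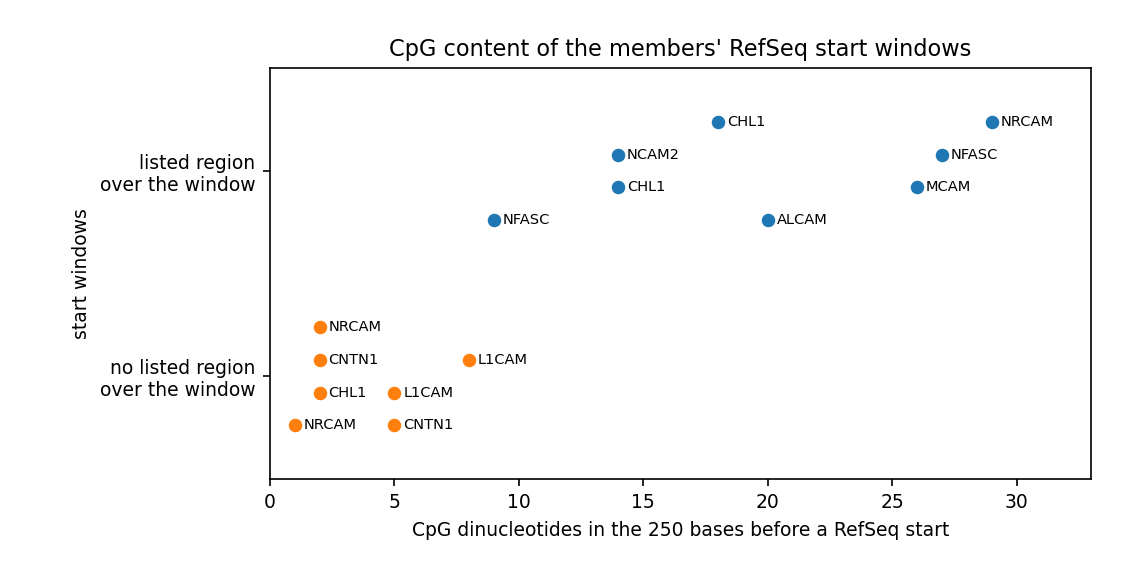
Number of CpG dinucleotides (horizontal axis) in the 250 bases before each of the 15 RefSeq starts of the genes, split by whether a listed region covers part of the window (rows); each point is 1 start. The 8 covered starts sit at 9 to 29 CpG and the 7 uncovered ones at 1 to 8.

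No member region changed past the threshold. The authors' multiple-testing adjustment took in only regions averaging 63.8 normalized reads or more, here called tested, and 8 of the 124 were among them per the authors' deposited table. By the adjusted p of DESeq2 (Benjamini-Hochberg, threshold 0.05), 0 of these 8 passed, where 1.02% of all 11185 tested regions passed as higher and 0% as lower per the authors' deposited table. At an unadjusted p under 0.05, 1 of the 8 was higher and 0 were lower, against 14.8% and 0.107% of all tested regions per the authors' deposited table. Among all 124 regions, 4 were higher and 1 was lower at that level, against 3.58% and 0.179% of all listed regions per the authors' deposited table. After the tested median was subtracted, 0 of the 8 passed, as did 0.0536% of all tested regions in either direction. Above 0 lay 6 of the 8, against 85.7% of all tested regions per the authors' deposited table. The 8 tested regions are too few to place these shares above or below those of the whole table.

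The member regions lay close to the middle of the whole table. Their median log2 ratio of octanoate over vehicle was 0.26 with quartiles of 0.05 and 0.53 per the authors' deposited table, where all regions had a median of 0.23 and quartiles of -0.04 and 0.52. Above 0 lay 96 of the 124 (77.4%), against 72.1% of all regions per the authors' deposited table. The median standard error of a member region was 0.62 per the authors' deposited table, larger than most of these ratios. Member regions had a median of 28.6 normalized reads per kb of width, and all regions had 27.8. Since the table as a whole is centred above 0 on the authors' scale, a value near 0.23 lies at the middle of the table.

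**Figure D2:**
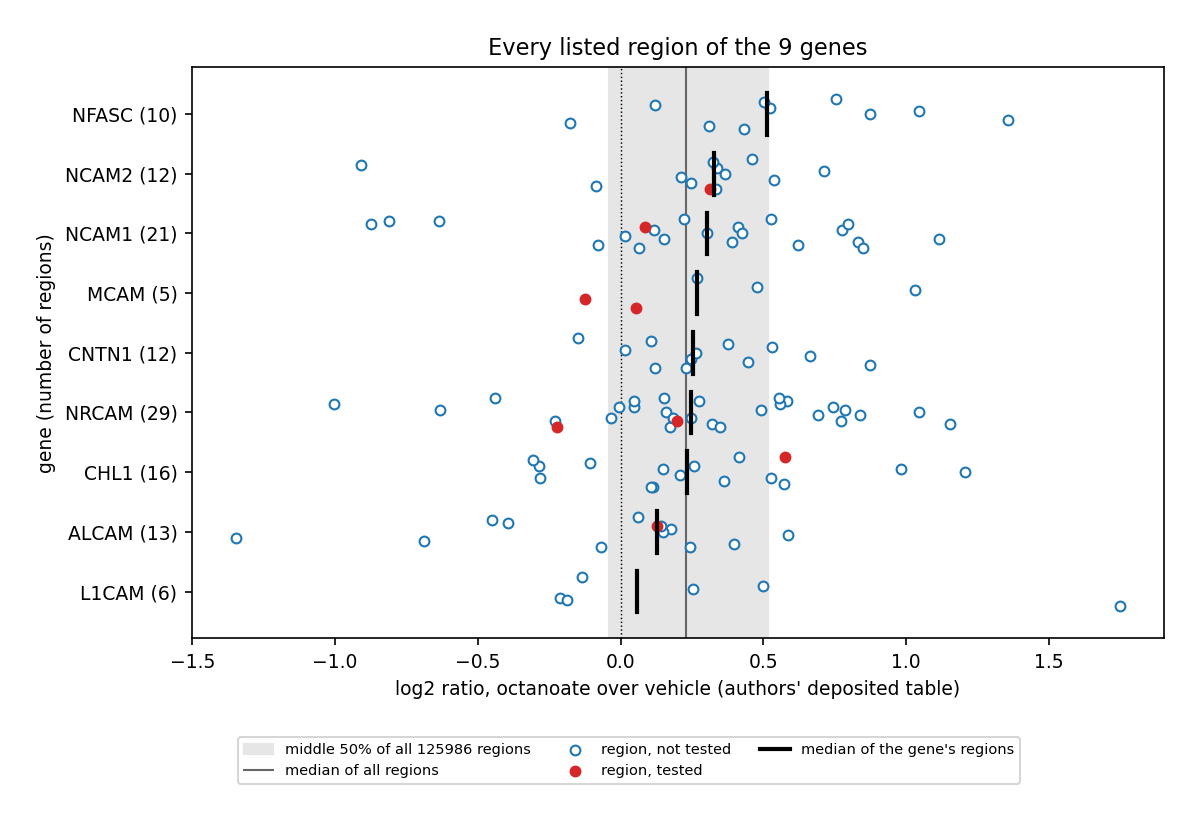
Log2 fold change of octanoate over vehicle (horizontal axis) of each of the 124 regions, by gene (rows, with the number of regions); points are regions, filled if tested, black bars are medians of a gene's regions, and the grey band holds the middle 50% of all 125986 regions. Gene medians run from 0.06 for L1CAM to 0.51 for NFASC, with 2 of the 9 below the median of all regions.

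NCAM1 and NCAM2 encode the neural cell adhesion molecules, which bind like molecules on other cells and, for NCAM1, carry polysialic acid chains that loosen contacts. NCAM1 (chromosome 11, 112961420 to 113278436) held 21 regions with log2 ratios from -0.88 to 1.11 and a median of 0.30 per the authors' deposited table. Its lower-coordinate end, where the strand was not used, lay in a tested region of 2795 bp with a mean of 112 normalized reads and a log2 ratio of 0.09 (standard error 0.20, adjusted p 0.870 by DESeq2) per the authors' deposited table. The means implied for the groups by the deposited mean and log2 ratio were 108 for vehicle and 115 for octanoate. This region also overlaps the antisense gene NCAM1-AS2, so its reads cannot be given to 1 gene. The most accessible NCAM1 region by width was not there: a 562 bp region 186 kb into the gene span (113147189 to 113147750) had 59.4 normalized reads per kb, against 39.9 at that end, and a log2 ratio of 0.02 per the authors' deposited table.

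NCAM2 (chromosome 21, 20998409 to 21543329) had few regions for its length, 12 in all or 2.12 per 100 kb, where the median of the 3356 protein-coding genes over 100 kb long was 4.28. All 12 overlapped the gene span itself, and their median log2 ratio was 0.33, with a range from -0.91 to 0.71, per the authors' deposited table. A tested 2733 bp region reached the outer end of the gene, with implied group means of 58.9 for vehicle and 73.2 for octanoate and a log2 ratio of 0.31 (standard error 0.26, adjusted p 0.590 by DESeq2) per the authors' deposited table. The only NCAM2 start with a RefSeq start window lay 149 kb further in, under an 835 bp region with 62.2 normalized reads per kb. The log2 ratio of that region was 0.37 (standard error 0.29) per the authors' deposited table. Both values lay within 1.5 standard errors of 0.

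The L1 family comprises L1CAM, CHL1, NRCAM and NFASC, transmembrane proteins whose tails bind ankyrin and so the spectrin skeleton under the membrane. L1CAM (chromosome X, 153861514 to 153886173) had 6 regions of at most 30.6 normalized reads, the lowest maximum of the 9 genes, and none was tested. The region with that mean, 680 bp wide, had a log2 ratio of -0.21 (standard error 0.38) per the authors' deposited table. A 961 bp region at its outer end had a mean of 16.3 and a log2 ratio of 0.25 (standard error 0.54) per the authors' deposited table, and a 430 bp region 159 bp from a RefSeq start had a mean of 12.6 and a ratio of 0.50 (standard error 0.59) on the log2 scale there. The L1CAM regions split evenly, 3 above and 3 below 0, and the largest value of the 124, 1.75, belonged to a 200 bp region with a mean of 2.60 and a standard error of 1.57 per the authors' deposited table. Of its regions, 3 also overlap the antisense gene L1CAM-AS1. None of the 6 had an unadjusted p under 0.05 per the authors' deposited table.

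CHL1, the close homologue of L1, spans 196763 to 409417 of chromosome 3 and held 16 regions. A 791 bp region within the gene (264452 to 265242) had 94.5 normalized reads per kb, the highest density among the 124, with implied group means of 60.1 for vehicle and 89.5 for octanoate. Its log2 ratio was 0.57 (standard error 0.24, 95% interval 0.10 to 1.05, unadjusted p 0.0179) per the authors' deposited table, and its adjusted p of 0.220 (DESeq2, Benjamini-Hochberg) missed the threshold. After the median of the tested regions was subtracted, its unadjusted p was 0.110. The CHL1 start, in a 1971 bp region shared with the antisense gene CHL1-AS2, stood at 24.6 normalized reads per kb with a log2 ratio of 0.11 (standard error 0.30) per the authors' deposited table. So the densest CHL1 region lay 68.1 kb inside the gene span, away from every listed start.

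NRCAM (chromosome 7, 108147649 to 108456720, minus strand) had the most regions, 29, of which 22 lay above 0 per the authors' deposited table. Its start region of 2514 bp had implied means of 115 for vehicle and 132 for octanoate and a log2 ratio of 0.20 (standard error 0.19, adjusted p 0.657 by DESeq2) per the authors' deposited table. A second tested region, 1047 bp wide and 25.6 kb inside the gene (108430636 to 108431682), was denser at 74.0 normalized reads per kb and had a log2 ratio of -0.22 (standard error 0.24, adjusted p 0.695 by DESeq2) per the authors' deposited table. Between these and the other end lay the NRCAM pair with an unadjusted p under 0.05, neither of them tested. The 766 bp region at 108245997 to 108246762 had implied means of 31.5 and 54.3 and a log2 ratio of 0.78 (standard error 0.33, unadjusted p 0.0160) per the authors' deposited table. The 780 bp region at 108415965 to 108416744 had implied means of 14.6 and 32.3 and a log2 ratio of 1.15 (standard error 0.47, unadjusted p 0.0148) per the authors' deposited table. After the tested median was subtracted, the unadjusted p was 0.0664 for the first of the pair and 0.0411 for the second. The first lies 2612 bp from the CpG-poor NRCAM start whose sequence is printed above, and that start itself had no region.

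NFASC, neurofascin, organises nodes and initial segments of axons, and spans 204828652 to 205022822 of chromosome 1. It had the highest median of the 9 genes, 0.51 over 10 regions, with 9 of the 10 above 0 and 8 above the median of all regions per the authors' deposited table. None was tested and none had an unadjusted p under 0.05, the smallest being 0.0680 per the authors' deposited table. The start region, 588 bp wide with 80.7 normalized reads per kb, was the densest start of the set and had implied means of 40.4 and 54.5 with a log2 ratio of 0.43 (standard error 0.30) per the authors' deposited table. A 662 bp region over the inner RefSeq start had implied means of 22.5 and 37.9 and a log2 ratio of 0.75 (standard error 0.41) per the authors' deposited table. The NFASC region of highest mean, 1252 bp wide and 161 kb inside the gene (204989303 to 204990554), had implied means of 52.6 and 57.1 and a log2 ratio of 0.12 (standard error 0.28) per the authors' deposited table, below the median of all regions. Among the 5731 protein-coding genes with at least 5 regions, gene medians had quartiles of 0.09 and 0.34 and a 95th percentile of 0.54, so NFASC lay above the upper quartile but under that percentile.

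CNTN1, contactin 1, is held in the membrane by a lipid anchor and acts beside L1 family and other partners on axons. The gene spans 40692439 to 41072415 of chromosome 12 and held 12 regions, none tested, with a median of 0.25 per the authors' deposited table. The outer end of the gene lay in a 923 bp region with implied means of 44.8 and 48.7 and a log2 ratio of 0.12 (standard error 0.30) per the authors' deposited table. A 686 bp region 716 bp before the inner RefSeq start (40906956 to 40907641) had implied means of 21.7 and 39.7 and a log2 ratio of 0.87 (standard error 0.38, 95% interval 0.12 to 1.62, unadjusted p 0.0224) per the authors' deposited table. It was the one member region within 1 kb of a start with an unadjusted p under 0.05, and its p was 0.0727 after the tested median was subtracted. The sequence of that CpG-poor start is printed above. The widest CNTN1 region, 1165 bp with a mean of 57.0, had a log2 ratio of 0.11 (standard error 0.28) per the authors' deposited table.

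MCAM and ALCAM have other layouts of immunoglobulin domains, and ALCAM is the ligand of CD6 on T cells. MCAM is the shortest of the 9 genes (chromosome 11, 119308529 to 119317130, minus strand), and its 5 regions lay at or upstream of its start. The start region of 2291 bp had implied means of 66.0 for vehicle and 68.5 for octanoate and a log2 ratio of 0.05 (standard error 0.25, adjusted p 0.945 by DESeq2) per the authors' deposited table. A tested region 2934 bp upstream (119320064 to 119321991) was denser, at 42.4 against 29.4 normalized reads per kb, with implied means of 85.2 and 78.1 and a log2 ratio of -0.12 (standard error 0.24, adjusted p 0.846 by DESeq2) per the authors' deposited table. The 95% intervals of both, from -0.45 to 0.55 and from -0.60 to 0.35 with the authors' deposited table's standard errors, leave out a doubling or a halving.

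ALCAM (chromosome 3, 105366909 to 105576900) had the strongest region of the 124 and also the one with the smallest p. Its start lay in a region of 4643 bp with implied means of 255 for vehicle and 278 for octanoate. The log2 ratio there was 0.13 (standard error 0.13, 95% interval -0.13 to 0.39, adjusted p 0.684 by DESeq2) per the authors' deposited table, the most precise value of the set. An 813 bp region 31.6 kb inside the gene (105398086 to 105398898) had implied means of 29.5 and 11.6 and a log2 ratio of -1.35 (standard error 0.47, 95% interval -2.27 to -0.43, unadjusted p 0.00418) per the authors' deposited table. It was not tested by the authors for its mean of 20.6, and an adjustment over all listed regions gave it an adjusted p of 0.686. Its unadjusted p after the tested median was subtracted was 0.00111. Of the 13 ALCAM regions 5 lay below 0 and 3 above the median of all regions, and the ALCAM median of 0.13 was the second lowest of the 9 genes per the authors' deposited table.

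**Figure D3:**
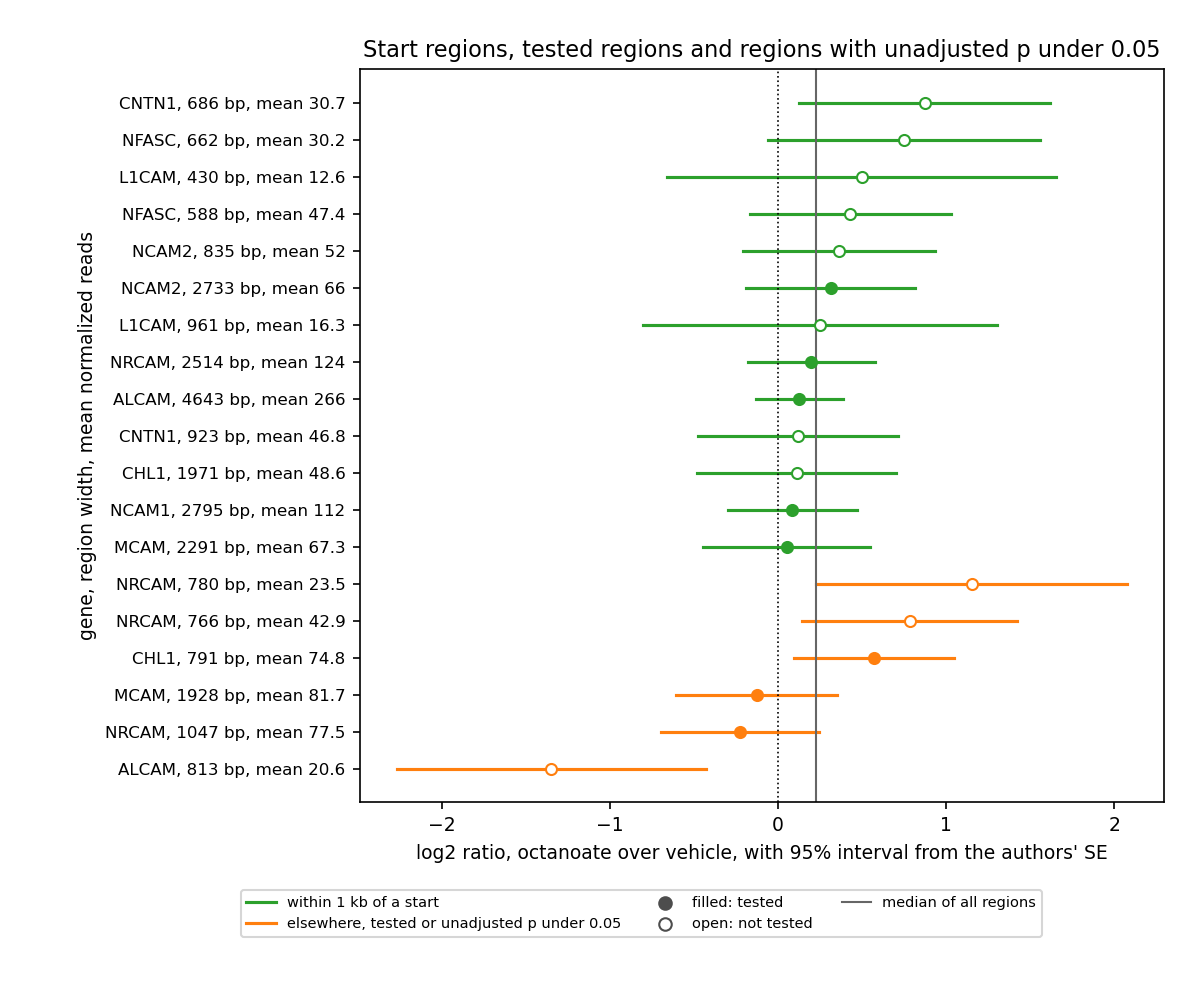
Log2 fold change (horizontal axis, points) with its 95% interval from the authors' standard error (lines) for the 13 regions within 1 kb of a start (green) and for other regions that were tested or had an unadjusted p under 0.05 (orange); filled points were tested. All 13 start regions sit above 0, where 5 of them fall below 0 once the tested median is subtracted, and the interval leaves out 0 at 1 of them, the 686 bp region of CNTN1, whose p was 0.0727 after that subtraction.

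Start regions were then set beside the rest. The 13 member regions within 1 kb of a start had a median log2 ratio of 0.25, from 0.05 to 0.87, and all 13 lay above 0 per the authors' deposited table, 5 of them below 0 once the tested median of 0.19 was subtracted. Of the 12033 listed regions within 1 kb of a RefSeq start of a protein-coding gene, 75.5% lay above 0 and the median was 0.14 per the authors' deposited table. The 5 tested start regions, of ALCAM, NRCAM, NCAM1, MCAM and NCAM2, had a median of 0.13, as did the 3 of them at a RefSeq start. All tested regions at a RefSeq start of a protein-coding gene had 0.16, per the authors' deposited table. The 111 member regions away from a start, with gene ends counted as starts, had a median of 0.26 per the authors' deposited table. All listed regions not within 1 kb of a RefSeq start of a protein-coding gene, a rule without gene ends, had 0.25 there. Of the 13, 4 counted only through an end of the RefSeq gene span that has no RefSeq start window. They were those of NCAM1 (2795 bp), NCAM2 (2733 bp), L1CAM (961 bp) and CNTN1 (923 bp). The 9 at a RefSeq start, defined as for the whole table, had a median of 0.37 and all lay above 0 per the authors' deposited table. These medians were not tested, since the table used here has no values of single libraries.

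**Figure D4:**
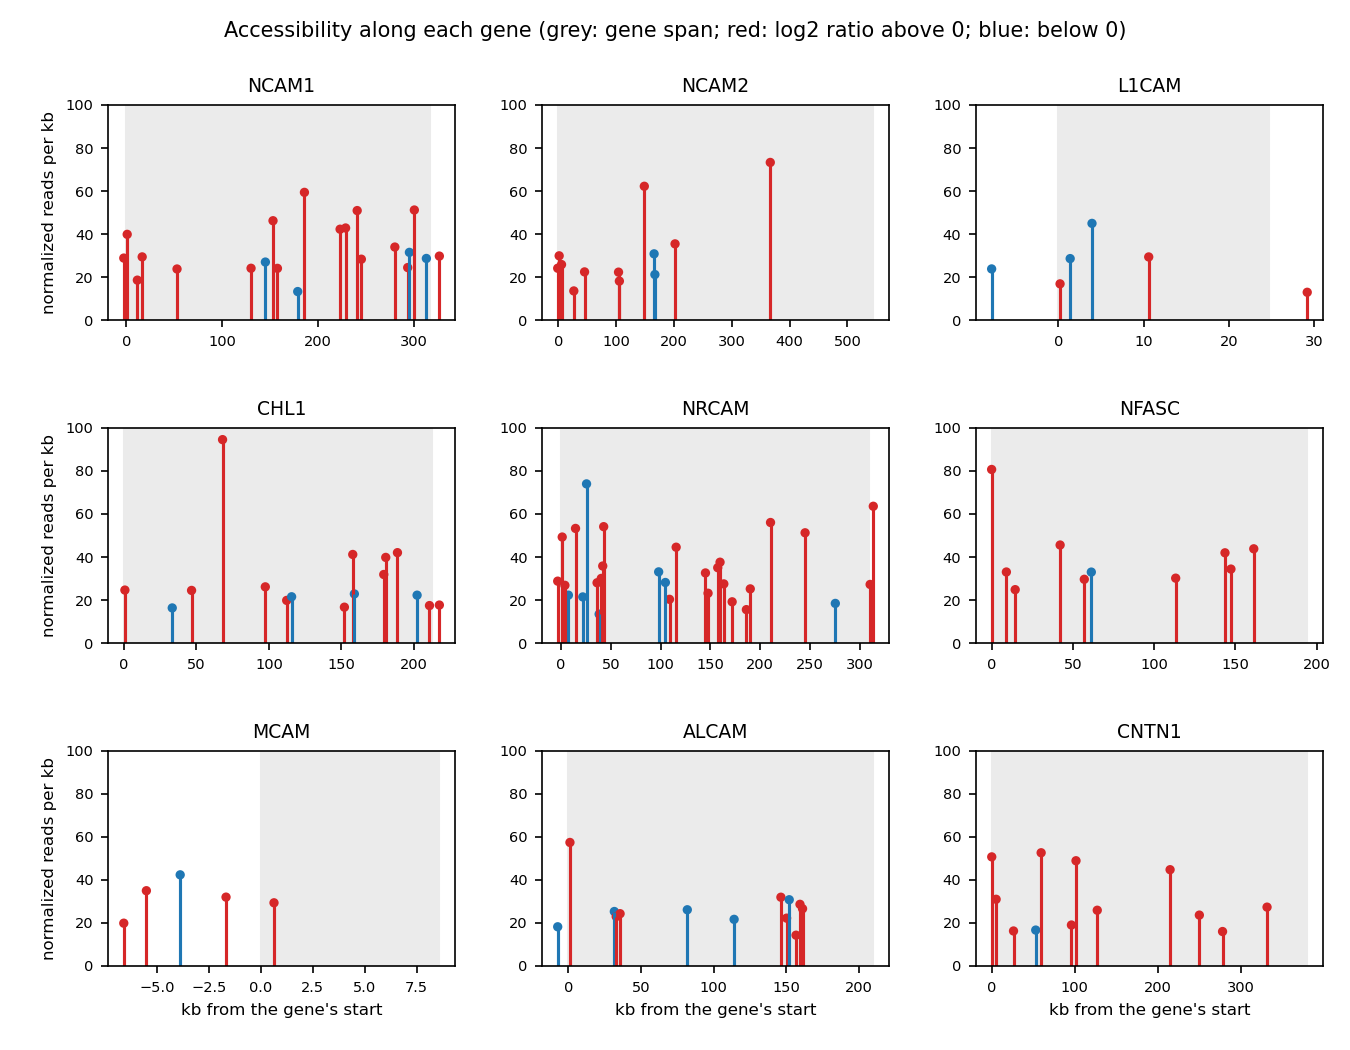
Normalized reads per kb of region width (vertical axis) against distance in kb from the gene's outer start (horizontal axis; for NCAM1, whose strand was not used, from its lower coordinate), 1 panel per gene; red regions lie above 0 and blue below 0 in log2 ratio, and grey marks the gene span. The densest region lies inside the gene and away from a start in CHL1, NCAM1, NCAM2, NRCAM, CNTN1 and L1CAM. It lies upstream of the gene in MCAM, and at the start in ALCAM and NFASC. Density divides by width, and start regions are often wide. By mean reads, a region within 1 kb of a start exceeded the densest region in NCAM1, NCAM2, NRCAM and CNTN1, and not in CHL1, L1CAM or MCAM.

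By median log2 ratio per the authors' deposited table, the order was NFASC (0.51), NCAM2 (0.33), NCAM1 (0.30), MCAM (0.27), CNTN1 (0.25), NRCAM (0.25), CHL1 (0.23), ALCAM (0.13) and L1CAM (0.06). The middle 50% of a gene's regions overlapped between all neighbours in this order. At its ends, that range was 0.34 to 0.84 for NFASC and -0.17 to 0.44 for L1CAM per the authors' deposited table. This spread is over regions and not over samples, so the order is a description and was not tested. It moved with the choice of regions: with 50 kb either side the L1CAM median was 0.28 (15 regions), and within the gene span alone MCAM had 1 region, at 0.05, per the authors' deposited table. The order also differed among the stronger regions: for regions with at least the median mean of the table, NFASC stood at 0.37, MCAM at 0.05 and L1CAM at 0.25 per the authors' deposited table. CHL1 and L1CAM lie near chromosome ends, CHL1 0.19 Mb from the first listed region of chromosome 3 and L1CAM 2.14 Mb from the last of chromosome X. All regions within 5 Mb of an outermost listed region had a median of 0.33 per the authors' deposited table, and these genes had 0.23 and 0.06.

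**Figure D5:**
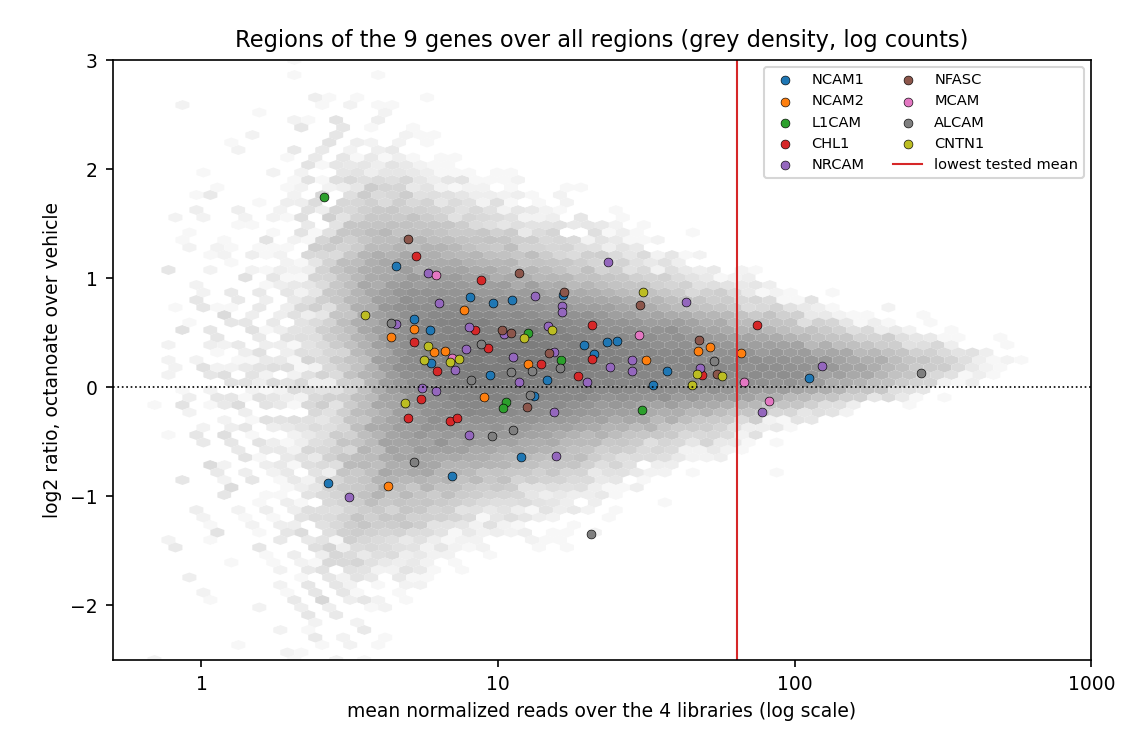
Log2 fold change (vertical axis) against mean normalized reads over the 4 libraries (horizontal axis, log scale) for the member regions (coloured by gene) over the density of all listed regions with a mean under 1000 (grey); the red line marks the lowest tested mean, 63.8. Member regions lie inside the cloud of all regions, and 8 lie right of the line.

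Other adhesion molecules of the superfamily and their partners were listed separately. The 34 other genes, among them further contactins, nectins, ICAMs and the lipid-anchored IgLON proteins NTM, OPCML, LSAMP and NEGR1, held 549 regions, 37 of them tested. Of the 37, 1 passed the threshold, higher, and 0 were lower (1.02% and 0% of all tested regions) per the authors' deposited table. It lay within the 10 kb extended span of NTM (chromosome 11, 132071650 to 132073269), with a log2 ratio of 0.66 (standard error 0.13, adjusted p 0.000838 by DESeq2) per the authors' deposited table, and its adjusted p after centring on the tested median was 0.212. At an unadjusted p under 0.05, 12 of the 37 were higher and 0 lower (14.8% and 0.107% of all tested regions) per the authors' deposited table, and 7 of the 12 belonged to NTM and its neighbour OPCML, which held 7 tested regions each. These 7 lay within 5 Mb of the last listed region of chromosome 11. Of the 1040 tested regions that near to an outermost listed region of any chromosome, 325 were higher at that level and 44 passed the threshold, all higher, per the authors' deposited table. The median over the 549 regions was 0.26 per the authors' deposited table.

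The 25 partner genes, which include ankyrins, the polysialic acid transferases ST8SIA2 and ST8SIA4, the contactin-associated proteins and the sheddase ADAM10, held 385 regions with 24 tested. None of the 24 passed the threshold per the authors' deposited table (0 by DESeq2's adjusted p, beside 1.02% higher and 0% lower of all tested regions). At an unadjusted p under 0.05, 2 of the 24 were higher and 0 lower (14.8% and 0.107% of all tested regions) per the authors' deposited table. Both of these lay in CNTNAP2, a contactin-associated protein of axons, and the one with the smaller p (chromosome 7, 147510785 to 147511780) had a log2 ratio of 0.75 (standard error 0.22, adjusted p 0.0508) per the authors' deposited table. The partner regions had a median of 0.19 per the authors' deposited table.

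As a check of the label, regions within 1 kb of a start were listed for 4 of 7 melanocytic and neural crest genes (MITF, SOX10, PMEL and DCT, and not MLANA, TYR or TYRP1) and for 5 of 5 undifferentiated melanoma genes. They were also listed for 1 of 4 T cell and leukocyte, 1 of 3 epithelial, 0 of 2 endothelial, 3 of 3 fibroblast and 2 of 2 neuronal genes. Presence of a region does not separate these classes by expression. For genes with no strand in the sources used here, a region at either end of the gene counted.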

How the data were processed

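ATAC-seq of A375 cells was measured in 2 octanoate and 2 vehicle libraries, grouped by their titles. Per the labels, sequencing was planned for an average of 40 to 50 M paired-end reads per library; the depth reached is unknown from the table used here, so no counting intervals are given. Per the submitters' processing notes, Bowtie2, Picard, MACS2, featureCounts, DESeq2 and bedtools 2.29.1 were used with build hg38, with no roles or settings; any Tn5 shift and the merging of regions are not given in the sources used here. Those steps set which regions exist and how wide they are.

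Per the file headers, the authors deposited for every region a signal (normalized reads averaged over the libraries), a log2 fold change (octanoate over vehicle, called log2 ratio here) and its error. They also deposited a score, which is the Wald statistic, and p-values before and after adjustment. The score divided out exactly, to 2.31e-14, as ratio over error. Adjusted values matched Benjamini-Hochberg run on 11185 regions, those averaging 63.8 or more, and stood at 1 in the other 114801, here treated as not tested.

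Coordinates count from 1. Gene spans and start windows came from RefSeq tables (GRCh38.p14, 59792 genes); exons were not used here. Starts were RefSeq starts plus the gene's outer end, or both ends of the gene where no strand was given. Group means were implied from the deposited mean and fold change, assuming that the fold change is the ratio of the group means. Intervals (95%) are normal, from the authors' standard errors. Centred p-values, for tested and other regions alike, were recomputed with scipy 1.17.1 and tested on simulated data. The analysis used Python 3.11.15 and pandas 2.3.3.

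Regions described singly were those at a start, tested, of highest mean in their gene, or with an unadjusted p under 0.05; related genes were named if past the threshold or of smallest p in their list, and others (the 562 bp region of NCAM1, the 200 bp region of L1CAM, OPCML) were named after their values were seen. The members and lists were chosen with earlier results of these data known.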

Additional observations from a re-analysis of the deposited data

How the results depend on the processing

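Other settings left the count of member regions past the threshold at 0: adjustment over all regions or over those at or above the 25th percentile of mean signal, thresholds of 0.1 and 0.01, a required doubling or halving, centring on the tested median, the gene span alone, and 50 kb either side (11 tested regions). The count of tested regions with an unadjusted p under 0.05 was 1 as deposited, 0 after centring on the tested median, 3 with 50 kb either side, and 5 when all 124 regions were counted. The median of all member regions, 0.26 as deposited, was 0.12 with the region of highest mean per gene and 0.026 after centring on the median of all regions, and ran from 0.25 to 0.30 when each gene was left out. The tested regions' median of 0.11 became -0.080 after centring on the tested median, because the subtracted median of 0.19 exceeded it, was 0.20 with 50 kb either side, and ran from 0.087 to 0.16 when each gene was left out. The median of start regions, 0.25, became 0.066 after centring and 0.37 with RefSeq starts only, a setting chosen after seeing the data. For the same reason centring on the median of all regions turned the medians of L1CAM (-0.17) and ALCAM (-0.10), and centring on the tested median turned the start regions of NCAM1 (-0.10), CHL1 (-0.074), MCAM (-0.13), ALCAM (-0.059) and CNTN1 at its outer end (-0.067). The L1CAM median of 0.06 became 0.28 with 50 kb either side, and that of MCAM, 0.27, became 0.05 with the gene span alone (1 region). A median was taken as moved when it changed by 0.1 or more.

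No paired analysis was possible because single libraries have no values in the deposited file used here. Leaving out a replicate and other normalizations were not run for the same reason. Just inside the 10 kb limit, an L1CAM region 7585 bp and an NCAM1 region 9754 bp from their genes had log2 ratios of -0.19 and 0.80 per the authors' deposited table; just outside it, an ALCAM region at 10354 bp and an NRCAM region at 10645 bp had 0.43 and -0.45.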
